A study of Mus musculus with 4 samples.

Results

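The genes described are 40 chemokines, cytokines and inflammatory mediators, chosen by name. They were measured in brown preadipocytes with floxed alleles of the histone methyltransferase G9a, given Cre or vector. A gene was measured through the probe sets that the platform annotation assigns to its symbol alone, and 38 of the 40 had at least 1, giving 66 of the 45037 probe sets analysed. Il1rl1 and C3 had no such probe set and were not analysed here. The knockout group held 2 arrays of Cre-treated cells and the control group 2 arrays of vector-treated cells, numbered 1 and 2 in each. All 4 came from immortalized brown preadipocytes of a mixed C57/BL6-129 background that carry floxed G9a alleles (G9a f/f), so the cells labelled wild type are floxed cells given the empty vector. The cells grew in DMEM with fetal bovine serum, and the labels name no inflammatory stimulus and do not say whether arrays of a group are separate cultures. Xist and the Y-linked gene Eif2s3y differed between numbers 1 and 2 in both groups, so the arrays of a group are not repeats of 1 RNA sample, and the spread within a group takes in the difference between the numbers.

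Chemokines are small secreted proteins that attract leukocytes along a gradient, named CC, CXC or CX3C after the spacing of their first cysteines. Fibroblasts and preadipocytes secrete many of them when interleukin 1 or tumour necrosis factor activates NF-κB, a transcription factor held in the cytoplasm by its inhibitor IκBα. Interferons induce a second set that includes Cxcl9, Cxcl10 and Il15. G9a places mono- and dimethyl marks on lysine 9 of histone H3, and the dimethyl mark is typical of silent chromatin.

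The G9a gene, Ehmt2, had signals of 953 and 912 in the knockouts, against 2682 and 2688 in the controls, so its signal was lower but not lost. Of 7 preadipocyte or fibroblast markers, 6 had a probe set and all 6 lay above the median of every array, among them Col1a1 and Pdgfrb. Among 10 macrophage and leukocyte markers, 3 lay above those medians (Laptm5, Csf1r and Cd68), and the part of these cells in the results was not tested. The summed signal of all 10 was 560 to 775 units in the knockouts, against 456 to 509 in the controls. The pan-leukocyte gene Ptprc read at most 4.5 units in the knockouts and 11.9 in the controls, and the myeloid integrin gene Itgam at most 6 and 6.5. Of 5 mast cell markers, Kit, Cpa3, Mcpt4 and Fcer1a were below the level filter used for testing, while the tryptase gene Tpsab1 read 627 and 1102 units in the knockouts, against 57.9 and 66.1 in the controls. Of 5 endothelial and 5 T and NK cell markers, 0 lay above the median of every array. In bulk RNA, fewer cells of a type and less RNA per cell cannot be told apart.

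Signals below are the deposited units, in which array medians ran from 50.6 to 78. Differences are knockout minus control in log2(quantile-normalized signal + 16), a scale that understates changes of dim genes. No detection call came with the values, so a gene was taken as expressed when its brightest probe set exceeded the median of its own array on all 4 arrays. By that measure 19 of the 38 genes were expressed. The 24 genes whose mean passed a level filter at the 50th percentile of all probe sets were tested with limma, 19 of them expressed and 5 not. A gene that is bright in 1 group only can pass that filter because it differs, as Il15 did.

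In the model without pairing, 0 of the 24 tested genes changed at a limma adjusted p under 0.05, as did 0% of the 11079 tested genes in each direction. Adjusted p-values ran from 0.319 to 0.999. At an unadjusted p under 0.05, 4 of the 24 were higher and 2 lower, against 3.8% and 1.27% of tested genes. With the replicate number as a block, called the paired model here, Ccl9, Ccl8 and Il15 rose and Ptx3, Il1r1, Cxcl12 and Csf1 fell. These were 3 and 4 of 24, beside 3.25% of tested genes that rose and 0.984% that fell. Every ± below is the SE of the model without pairing, also where a paired p stands beside it. The paired model has 1 residual degree of freedom and leans on a variance borrowed from all probe sets along an intensity trend. When that trend was left out, 0 of the 24 passed in it, and without the level filter Ccl9 and Ptx3 passed while the other 5 did not. Both knockouts lay above both controls for 5 of the 24, beside 17.5% of tested genes, and below them for 3, beside 13.6%.

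**Figure D1:**
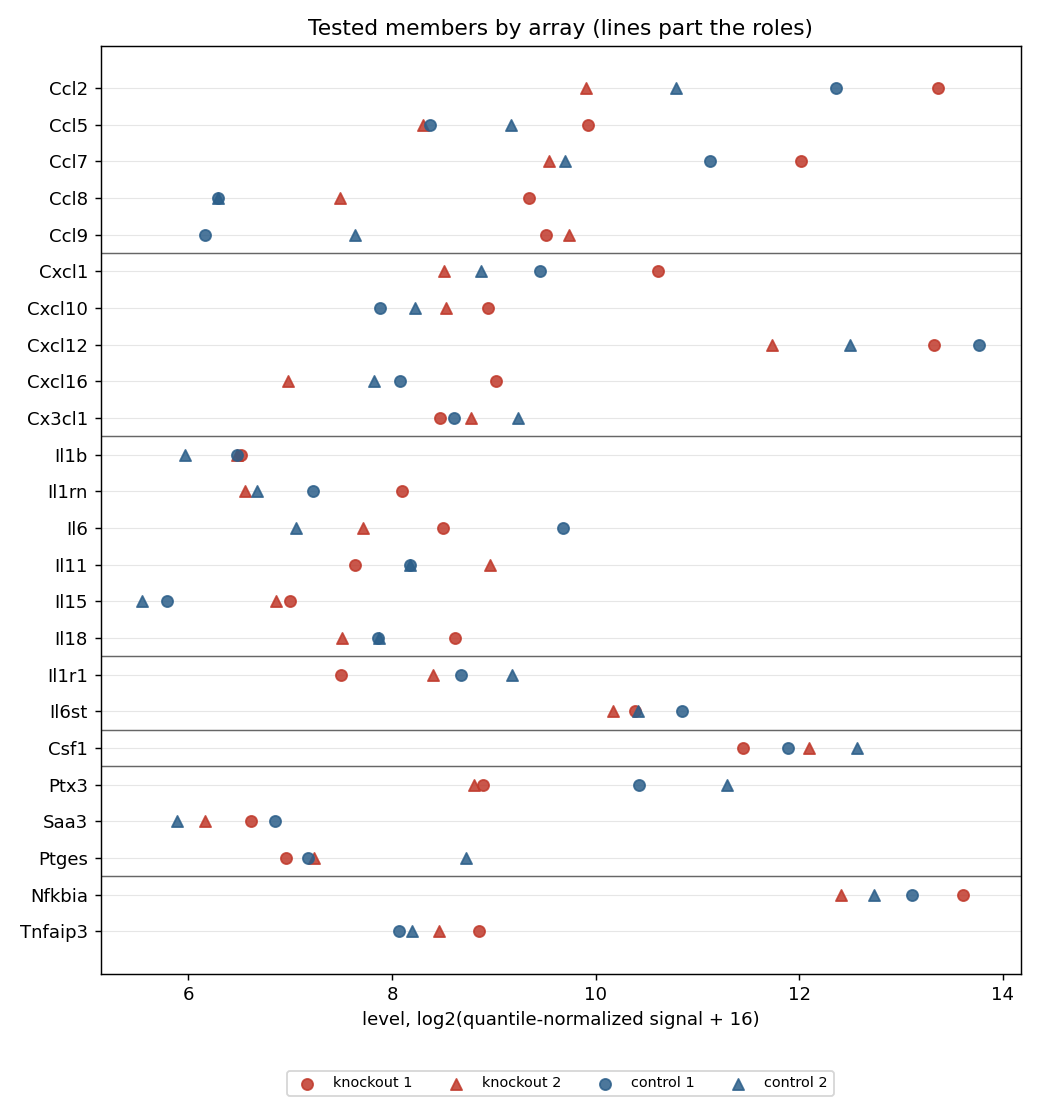
Level of the 24 tested genes on each array, as log2(quantile-normalized signal + 16), with knockout arrays in red and control arrays in blue, circles for number 1 and triangles for number 2. Levels may be compared along a row, not between rows, and the knockout and control points part without overlap in 8 rows, such as Ccl9, Il15 and Ptx3.

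Among CC chemokines, Ccl9 and Ccl8 were higher in both knockouts than in both controls, while Ccl2, Ccl5 and Ccl7 overlapped between the groups. Ccl9, a chemokine that acts through the receptor Ccr1, read 733 and 813 units in the knockouts, against 59.6 and 162 in the controls. Its difference was 2.73 ± 0.48 (SE, n = 2 against 2), or 6.62-fold, with 3.35 within number 1 and 2.10 within number 2 (adjusted p by limma of 0.39 unpaired and 0.000347 paired). A second probe set gave 2.57, with 2.74 and 2.39 within the numbers. On the brightest probe set, control 1 lay below control 2, and without control 2 the difference was 3.46, against 1.99 without control 1. Ccl9 was tested but not counted as expressed, since control 1 was under its array median of 67.2.

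Ccl8, a monocyte attractant, read 653 and 149 units in the knockouts, against 67.2 and 50.8 in the controls. The groups did not overlap, but knockout 1 stood well above knockout 2. The difference was 2.13 ± 0.59, with 3.06 and 1.19 within the numbers (adjusted p by limma of 0.779 unpaired and 0.00975 paired). It was 1.20 without knockout 1 and 3.06 without knockout 2. In the paired model Ccl8 did not pass with robust variance moderation (adjusted p = 0.104). Ccl8 was not counted as expressed either, since control 1, at 67.2 units, did not exceed its array median of 67.2.

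Ccl2 and Ccl7, which draw monocytes through Ccr2, went opposite ways in the 2 numbers. Ccl2 read 10335 and 913 units in the knockouts, against 5018 and 1765 in the controls. Knockout 1 was the highest array and knockout 2 the lowest, giving 0.996 within number 1 and -0.89 within number 2. Ccl7 read 3979 and 706 units in the knockouts, against 2192 and 803 in the controls, with 0.90 and -0.15 within the numbers. Ccl5, a T cell and monocyte attractant, read 956 and 280 units in the knockouts, against 335 and 534 in the controls, with 1.55 and -0.87. Their differences over both numbers were 0.05 ± 1.10 for Ccl2, 0.37 ± 0.84 for Ccl7 and 0.34 ± 0.57 for Ccl5, none of which passed in either model.

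Ccl8 shares a cluster on chromosome 11 with Ccl2, Ccl7, Ccl11 and Ccl12 in RefSeq's annotation of GRCm38.p6, and Ccl9 lies between Ccl5 and Ccl6 on the same chromosome. The eotaxin gene Ccl11 read 3.9 and 4.2 units in the knockouts, against 33.5 and 1.4 in the controls. Ccl12 and Ccl6 were below the level filter, with at most 2.6 and 22 units in the knockouts and 2.2 and 22.3 in the controls. The 250 bases before the starts of the 2 chemokine genes that rose are given from RefSeq (GRCm38.p6), 5′ to 3′ on the gene's strand. Capitals mark the word TATAAA within 60 bases of the start in Ccl8 and a match to the κB consensus of NF-κB in Ccl9.
Ccl8 (chr11:82114935-82115184, plus strand): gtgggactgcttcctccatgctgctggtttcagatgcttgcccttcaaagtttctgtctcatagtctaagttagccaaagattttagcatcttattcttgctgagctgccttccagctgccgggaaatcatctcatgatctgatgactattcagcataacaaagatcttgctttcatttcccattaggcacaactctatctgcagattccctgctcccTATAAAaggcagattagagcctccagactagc
Ccl9 (chr11:83578637-83578886, minus strand): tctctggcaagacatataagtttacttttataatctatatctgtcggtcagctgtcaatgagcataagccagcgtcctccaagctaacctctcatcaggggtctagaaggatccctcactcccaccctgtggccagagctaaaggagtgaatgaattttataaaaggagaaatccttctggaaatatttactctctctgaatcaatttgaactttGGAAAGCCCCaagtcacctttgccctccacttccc
TATAAA stood in the last 60 bases of 6 of the 38 promoters listed for these genes (15.8%), against 2.87% of 32851 listed promoters.

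Of the CXC and CX3C chemokines, Cxcl12 fell in the paired model. Cxcl16 followed opposite directions in the 2 numbers, and so did the brightest probe set of Cxcl1, but not every probe set of that gene. Cxcl12, which retains stem cells and lymphocytes through Cxcr4, read 10071 and 3492 units in the knockouts, against 13211 and 6024 in the controls. Arrays of number 1 were above arrays of number 2, so the groups overlapped, and within each number the knockout was lower, by -0.44 and -0.77. The difference was -0.60 ± 0.59 without pairing (limma adjusted p = 0.999), while the paired model gave an SE of 0.10 and an adjusted p of 0.00975. A second probe set gave -0.54 and -1.48 within the numbers. Leaving out 1 array unbalances the numbers and turned the sign, to 0.03 without control 1 and 0.19 without knockout 2.

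Cxcl1, a neutrophil attractant that acts through Cxcr2, read 1527 and 324 units in the knockouts, against 709 and 428 in the controls. Knockout 1 was again the highest array and knockout 2 the lowest, with 1.16 and -0.37 within the numbers. That probe set is of a class that can match several transcripts. Another probe set of Cxcl1 was positive in both numbers, with 1.65 and 0.15, and the remaining one gave 1.58 and -0.53. Cxcl16, a membrane-bound chemokine that binds Cxcr6, read 524 and 97.1 units in the knockouts, against 270 and 188 in the controls, with 0.95 and -0.85. Cx3cl1, or fractalkine, read 369 and 398 units in the knockouts, against 397 and 564 in the controls (-0.30 ± 0.30). A second, dimmer probe set of Cx3cl1 gave -0.58 and -0.71 within the numbers, and its groups did not overlap. It did not pass in either model (adjusted p by limma of 0.258 paired and 0.999 unpaired).

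Cxcl10, an interferon-inducible attractant of T cells, read 497 and 330 units in the knockouts, against 236 and 256 in the controls. The groups did not overlap, and the difference was 0.68 ± 0.28, with 1.06 and 0.31 within the numbers. It did not pass (adjusted p by limma of 0.999 unpaired and 0.148 paired). Cxcl9, induced by interferon gamma, was below the filter.

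**Figure D2:**
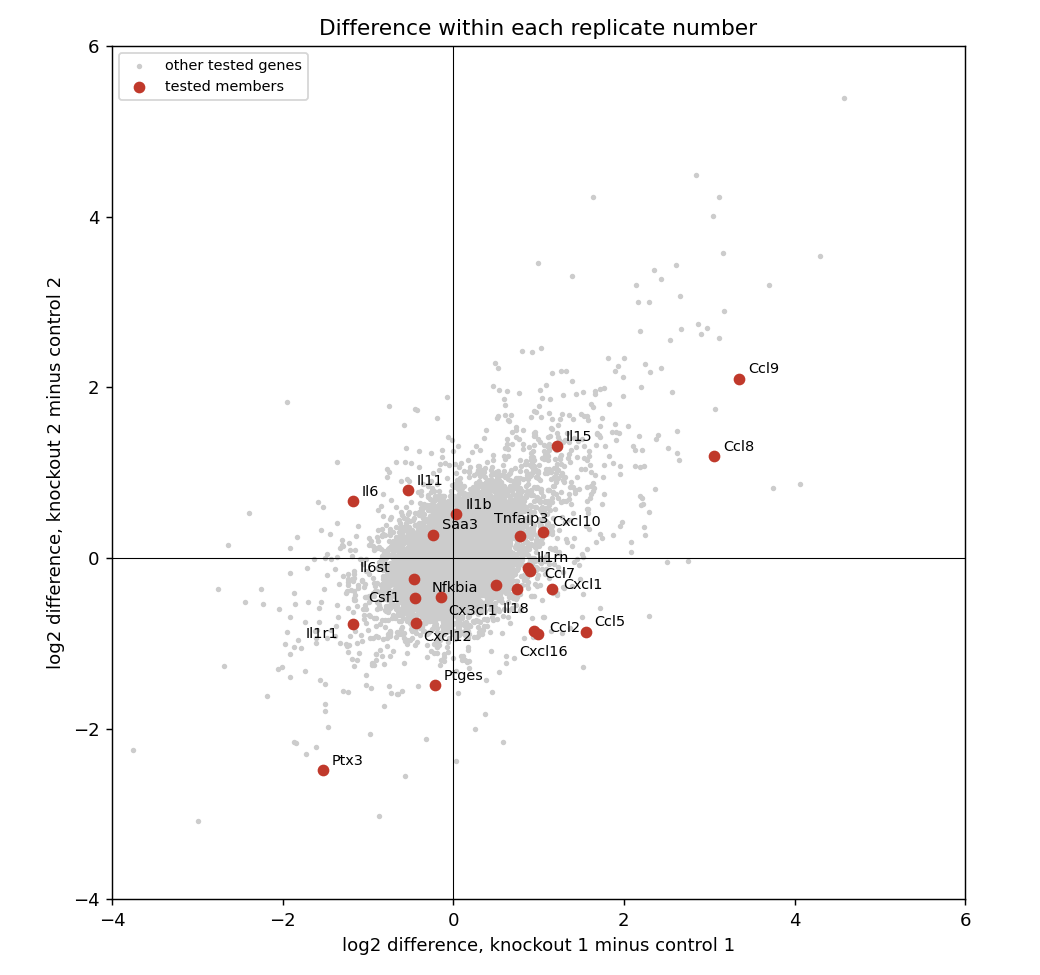
Log2 difference between knockout 1 and control 1 (horizontal) against that between knockout 2 and control 2 (vertical), for the 24 tested genes of the group in red and the other tested genes in grey. Ccl9, Ccl8 and Il15 lie at the upper right and Ptx3 at the lower left, while Ccl5, Ccl2 and Cxcl16 lie at the lower right, with positive differences in number 1 and negative ones in number 2.

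Some of the genes differed in sign between the numbers and others did not. Of the 24 tested genes, 11 had opposite signs in the 2 numbers, 8 of them positive in number 1 and negative in number 2, and 36.9% of the 11079 tested genes had opposite signs. These signs are those of the brightest probe set, and some dimmer probe sets of Cxcl1, Il1rn and Nfkbia were positive in both numbers. At least 1.5-fold apart in opposite directions were 4 of 24 (Ccl2, Ccl5, Cxcl16 and Il6), against 0.37% of tested genes. At least 1.5-fold apart in the same direction were 3 higher (Ccl8, Ccl9 and Il15), beside 3.8% of tested genes, and 2 lower (Il1r1 and Ptx3), beside 1.22%. Knockout 1 was the highest array for 13 of the 24, and for 32.6% of tested genes. The mean difference between the numbers exceeded that between the genotypes for 16 of the 24, and for 61.6% of tested genes. With 1 knockout and 1 control array per number, the difference between the numbers in their response has no test.

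Of the interleukins, Il15 rose in the paired model, and the others overlapped between the groups. Il15, which sustains natural killer and memory T cells, read 131 and 87.6 units in the knockouts, against 41.6 and 24.8 in the controls. Both knockouts were above both controls, by 1.21 and 1.31 within the numbers, a difference of 1.26 ± 0.30 or 2.40-fold (adjusted p by limma of 0.641 unpaired and 0.0446 paired). The value lay between 1.14 and 1.38 with any 1 array left out. The paired call was lost at a pseudocount of 64 (adjusted p = 0.0572). Il15 was tested but not counted as expressed, since its control signals were under the array medians. Il15ra, its high-affinity receptor subunit, read 161 and 182 units in the knockouts, against 126 and 114 in the controls (0.39 ± 0.29; paired adjusted p by limma of 0.454).

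Il6, the cytokine that signals through Il6st, read 377 and 177 units in the knockouts, against 824 and 99.4 in the controls. Control 1 was the highest array and control 2 the lowest, with -1.18 and 0.66 within the numbers. Il11, of the same family, read 206 and 463 units in the knockouts, against 289 and 246 in the controls, with -0.53 and 0.79. Il18, a cytokine matured by the inflammasome, read 406 and 151 units in the knockouts, against 233 and 195 in the controls, with 0.75 and -0.37. Il1rn, the antagonist of the interleukin 1 receptor, read 286 and 67.5 units in the knockouts, against 145 and 71.3 in the controls, with 0.87 and -0.12. A second probe set of Il1rn was positive in both numbers, with 0.90 and 0.32, and so was the remaining one, with 0.14 and 0.31. Il1b read 93.1 and 62.4 units in the knockouts, against 79.4 and 37.6 in the controls, with 0.04 and 0.51. None of these 5 passed in either model.

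Both receptors with a measured level had lower values in the knockouts. Il1r1, the signalling receptor for interleukin 1, read 186 and 300 units in the knockouts, against 416 and 537 in the controls. The groups did not overlap, and the difference was -0.98 ± 0.37 or 1.97-fold, with -1.18 and -0.77 within the numbers. It fell in the paired model (adjusted p by limma of 0.0236 paired and 0.999 unpaired). Without knockout 1 the difference was -0.53. Il6st, which encodes the shared signal transducer gp130, read 1311 and 1108 units in the knockouts, against 1833 and 1358 in the controls. Those groups did not overlap, but the difference of -0.35 ± 0.25 did not pass (paired adjusted p by limma of 0.285).

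Csf1, the growth factor of macrophages, read 2697 and 4526 units in the knockouts, against 3673 and 6288 in the controls. On its brightest probe set the numbers differed more than the genotypes, so the groups overlapped. The knockout was lower within each number, by -0.45 and -0.48. In the paired model Csf1 fell (adjusted p by limma of 0.0485 paired and 0.999 unpaired). This call sat at the threshold and was lost there with a pseudocount of 64, median centring or robust variance moderation (adjusted p = 0.0621, 0.0524 and 0.0587). It was also lost with the filter at the 75th percentile (adjusted p by limma of 0.0863). A second probe set gave -0.72 and -0.90 within the numbers, and its groups did not overlap. Its adjusted p by limma was 0.00751 paired, 0.0771 paired without the level filter and 0.999 unpaired. The remaining pair of probe sets gave -1.56 and -0.88 in number 1 but -0.07 and -0.16 in number 2. Csf1r, its receptor, read 194 and 222 units in the knockouts, against 143 and 163 in the controls, and did not pass (paired adjusted p by limma of 0.468).

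Ptx3, a secreted pentraxin that binds microbes and complement components, read 484 and 410 units in the knockouts, against 1388 and 2533 in the controls. Both knockouts lay below both controls, by -1.53 within number 1 and -2.49 within number 2, and Ptx3 fell in the paired model (-2.01 ± 0.33; adjusted p by limma of 0.000646 paired and 0.319 unpaired). A second probe set of Ptx3, below the level filter at 5.5 to 38.5 units, gave -1.12 and -0.14, and its groups overlapped. Ptges, the inducible synthase of prostaglandin E2, read 127 and 120 units in the knockouts, against 139 and 382 in the controls. Control 2 stood apart there, with -0.21 and -1.49 within the numbers, and the gene did not pass (paired adjusted p by limma of 0.174). Saa3, an acute phase gene of mouse adipose tissue and macrophages, read 100.1 and 47.1 units in the knockouts, against 109 and 35.2 in the controls (0.02 ± 0.41).

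**Figure D3:**
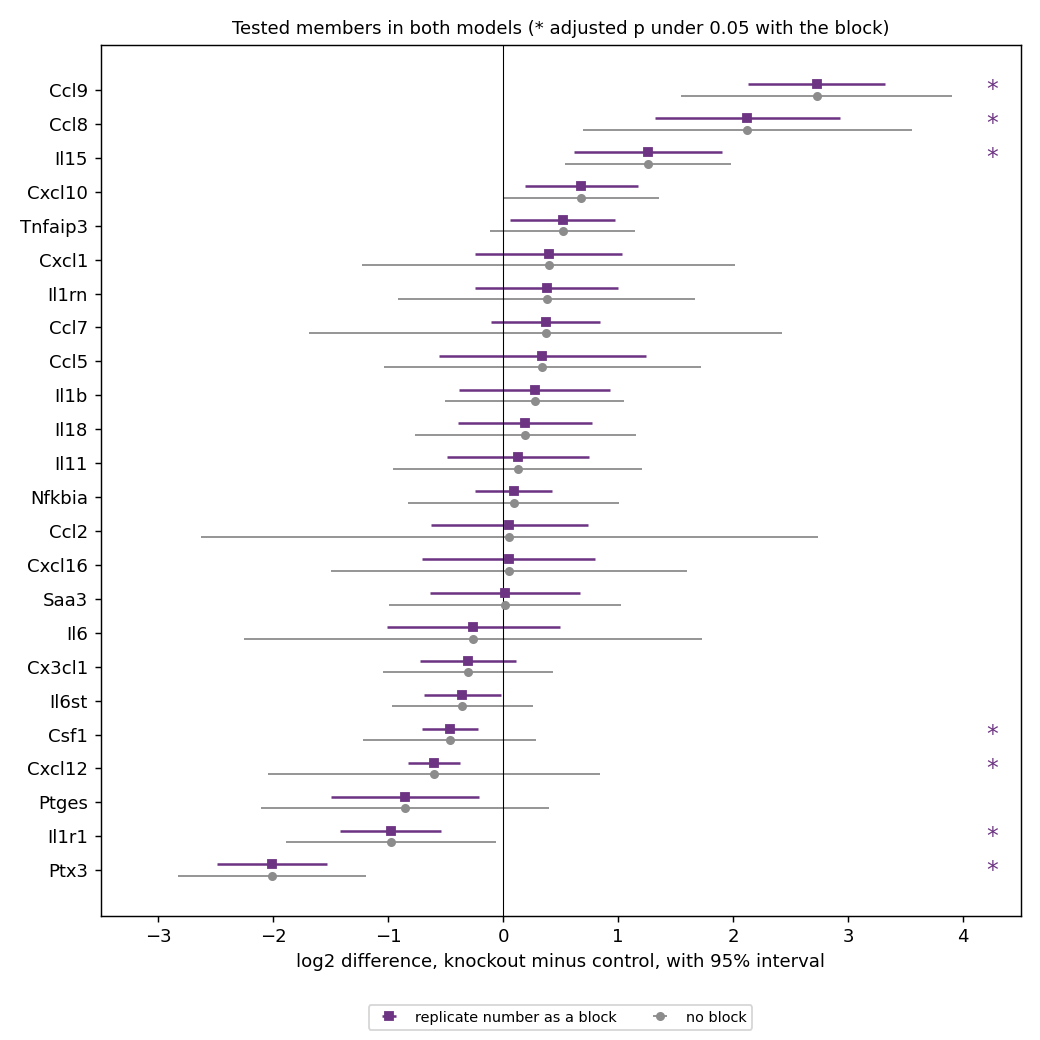
Log2 difference, knockout minus control, for each of the 24 tested genes, with its 95% interval from the paired model (purple squares) and from the model without pairing (grey circles); asterisks mark an adjusted p under 0.05 in the paired model. The 7 marked genes are Ccl9, Ccl8 and Il15 at the top and Csf1, Cxcl12, Il1r1 and Ptx3 in the lowest rows, where Ptges is unmarked.

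Neither tested gene of NF-κB feedback passed in either model. Nfkbia, which encodes IκBα and is itself induced by NF-κB, read 12605 and 5691 units in the knockouts, against 8289 and 7028 in the controls. Knockout 1 was the highest array and knockout 2 the lowest, with 0.50 and -0.32 within the numbers, and all 5 of its probe sets were positive in number 1 while 4 of 5 were negative in number 2. Tnfaip3, which encodes a ubiquitin-editing enzyme that ends NF-κB signalling, read 469 and 312 units in the knockouts, against 270 and 251 in the controls. Both knockouts were above both controls (0.52 ± 0.26), without passing (paired adjusted p by limma of 0.246). The adhesion molecule gene Icam1 was below the filter.

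**Figure D4:**
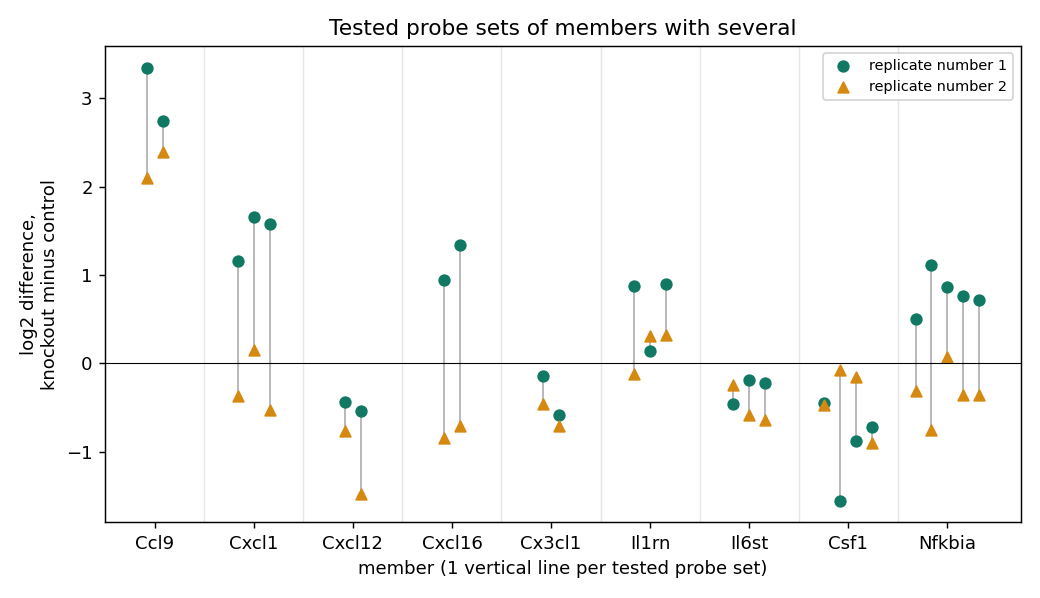
Log2 difference, knockout minus control, within replicate number 1 (green circles) and number 2 (orange triangles), for each tested probe set of the 9 genes with several. Both Ccl9 probe sets are positive and both Cxcl12 probe sets negative in both numbers, while for Cxcl16 and for 4 of the 5 Nfkbia probe sets the numbers lie on opposite sides of 0. The dimmer Ccl9 probe set passed the level filter only through the knockouts.

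The promoters were searched because many of these genes are textbook NF-κB targets. The κB consensus, on either strand, stood in the 250 bases before the start for 10 of 38 promoters listed for 31 of these genes (26.3%), against 3.90% of 32851 promoters listed by RefSeq. Sites of the genes tested above are printed with up to 7 flanking bases from GRCm38.p6, 5′ to 3′ on the gene's strand, with the match in capitals.
Ccl9 (chr11:83578655-83578678, minus strand): gaactttGGAAAGCCCCaagtcac
Cxcl1 (chr5:90891167-90891190, plus strand): gtactccGGGAATTTCCctggccc
Cxcl10 (chr5:92348976-92348999, minus strand): tttacagGGGACTTCCCtcgggtt
Il6 (chr5:30013063-30013086, plus strand): caaatgtGGGATTTTCCcatgagt
Il1r1 (chr1:40266347-40266370, plus strand): ggattttGGAATGCCCCcaaggag
Csf1 (chr3:107760607-107760630, minus strand): ccttgagGGAAAGTCCCtaggggc
Nfkbia (chr12:55492660-55492683, minus strand): ctggcttGGAAATTCCCcgcgcct
Tnfaip3 (chr10:19015519-19015542, minus strand): tcacgcgGGGACACCCCggggcgg
The Il1r1 window belongs to 1 of 2 starts listed for that gene, Cxcl10 and Tnfaip3 each hold a further match, and the Cxcl1 match overlaps its own reverse. Of these 8 genes, Ccl9 rose, Il1r1 and Csf1 fell and 5 did not pass in the paired model, and 3 had opposite signs in the 2 numbers. Over all tested genes, 3.25% rose, 0.984% fell and 36.9% had opposite signs. The core of the interferon-stimulated response element, GAAA, any 2 bases and GAAA again on either strand, stood in 3 of the 38 promoters (7.9%), against 2.98% of all, and Cxcl10 is shown as the interferon-inducible gene among the 3.
Cxcl10 (chr5:92349086-92349109, minus strand): cgctttgGAAAGTGAAActtacct
A match describes letters and does not show that a factor binds there.

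The 14 genes below the filter had signals between 0.9 and 229 units over all arrays. Tnf, a main inducer of this programme, read 22.9 and 8.4 units in the knockouts, against 21.6 and 10.7 in the controls. Ccl20, which attracts Ccr6-bearing lymphocytes, read 229 units in knockout 1 and 3.8 in knockout 2, against 6.3 and 3.2 in the controls. Il1a, an interleukin 1 released from damaged cells, read 75 and 2.2 units in the knockouts, against 3.1 and 4.4 in the controls. For both, knockout 1 stood apart from the other 3 arrays, which were close to each other. Csf3, the growth factor of neutrophils, read 11.8 and 11.1 units in the knockouts, against 32.7 and 29.7 in the controls. Cxcl2, Cxcl5, Cxcl14, Il33, Csf2, Lcn2 and Nos2 were also in this class.

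Of 20 tested genes of the NF-κB pathway, 0 changed at a limma adjusted p under 0.05 in either model, and at an unadjusted p under 0.05 in the paired model 2 were higher and 1 lower, beside 10.8% and 7.53% of tested genes. Their median difference was 0.10, against 0.007 over all tested genes. Within number 1 the median was 0.17, against 0.028, and within number 2 it was -0.015, against -0.0068. The smallest p belonged to Nfkb2, a precursor of an NF-κB subunit, which read 659 and 531 units in the knockouts, against 902 and 927 in the controls (-0.59 ± 0.23). Of 11 tested receptors for these ligands outside the group, 0 changed in either model, and 0 had an unadjusted p under 0.05 in either. Il1r1 and Il6st were counted with the group and not here. In the paired model 3.25% of all tested genes rose and 0.984% fell at the adjusted threshold. A count of 0 in lists this short is near those shares. Among 14 tested chemokines and cytokines outside the group, 0 changed in either model. At an unadjusted p under 0.05, 1 was lower and 0 higher in each model. Of all tested genes, 1.27% were lower at that p without pairing and 7.53% in the paired model. The gene was Tslp, an epithelial cytokine gene, with 49 and 37.4 units in the knockouts and 114 and 78.5 in the controls (-1.004 ± 0.29). On the log2 scale Tslp averaged 5.84 in the knockouts and 6.84 in the controls, and it passed the level filter only through the controls.

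The remaining lists are set beside the 3.25% of tested genes that rose and the 0.984% that fell in the paired model. Of 6 tested prostaglandin genes 1 fell and 0 rose. It was Ptger4, a receptor of prostaglandin E2, with 138 and 325 units in the knockouts and 573 and 874 in the controls (-1.68 ± 0.51; paired adjusted p by limma of 0.00208). Ptgs2, the inducible cyclooxygenase gene, read 3848 and 2344 units in the knockouts, against 4630 and 1739 in the controls. Of 9 tested complement genes 2 rose and 0 fell, namely Cd59a, an inhibitor of the membrane attack complex, with 1095 and 618 units in the knockouts and 298 and 212 in the controls (1.64 ± 0.32), and Serping1, the C1 inhibitor gene, with 318 and 165 units in the knockouts and 126 and 62 in the controls (1.16 ± 0.34). Their limma adjusted p-values in the paired model were 0.00122 and 0.02005. Of 4 tested acute phase and adhesion genes 1 rose, the P-selectin gene Selp (1.92 ± 0.44; paired adjusted p by limma of 0.00935), which read 270 and 198 units in the knockouts, against 27.2 and 68.1 in the controls. None of these 4 genes passed without pairing. Without the level filter, Cd59a still passed when paired (adjusted p by limma of 0.0452), and Ptger4, Serping1 and Selp did not (0.0676, 0.197 and 0.179). Selp averaged 7.93 in the knockouts and 6.01 in the controls in log2(signal + 16), and it passed the level filter only through the knockouts.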

How the data were processed

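Total RNA was hybridized to 4 Affymetrix arrays. The deposited values are 1 signal intensity per probe set and array, made with MAS5 per the submitters' processing notes (version not given in the sources used here). With 2% of values trimmed at either end, every array averaged 500. The 64 control probe sets were left out of 45101. Array medians lay up to 0.62 apart in log2, so signals were quantile normalized, and log2(signal + 16) was fitted with lmFit and eBayes with an intensity trend (limma 3.58.1, R 4.3.3) over 22519 probe sets at or above the 50th percentile of the mean. P-values were Benjamini-Hochberg adjusted over these, with a threshold of 0.05. The brightest probe set represented a gene. The number of arrays limits precision, and with 2 against 2 arrays the smallest two-sided permutation p is 0.333.

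The replicate numbers were taken to pair the arrays. Across tested probe sets, same-numbered arrays deviated together (correlation 0.603), and a probe set of Xist read 9810 (knockout) and 11049 (control) in number 1 and 58 and 41.8 in number 2. Eif2s3y read 228 (knockout) and 141 (control) in number 1 and 1265 and 1127 in number 2. The planned model without the block remained the main one. The genes and lists were chosen with earlier results of these data known. Genes given from the surrounding lists are among the 4 of their list with the smallest p without pairing, except Ptgs2, Ccl6 and Ccl12, added for their role or position after their values were seen. That rule does not cover the cell type markers, of which Ptprc and Itgam were below the level filter and had no p. Promoters are those of RefSeq, GRCm38.p6. Alternatives were other pseudocounts, filters and scalings, variance moderation without trend or robust, the block and leaving out each array. The fits were tested on simulated data.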

Additional observations from a re-analysis of the deposited data

How the results depend on the processing

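Of 310 values of the 24 tested genes under other settings, 276 kept their direction and their side of the threshold, 25 turned in sign and 9 passed the threshold only there, 7 of them with the replicate number as a block. The block moved the changed probe sets to 516 higher and 192 lower, against 2 and 0 without it, and the changed genes of the group to 3 higher and 4 lower, against 0 and 0. Without the block, probe sets called were 1 higher with a pseudocount of 1, 1 with a filter at the 75th percentile, 0 without a filter or without the intensity trend, and 14 higher and 2 lower with median centring, which moved the median of all differences to -0.11, against -0.02. Leaving out 1 array gave 7 to 28 probe sets higher and 0 to 3 lower, and 0 to 1 genes of the group higher (Ccl9 without control 2, Ccl8 without knockout 2). The block combined with each other setting was added after the data were seen. It gave 1 higher and 1 lower gene without a filter, 0 and 2 at the 75th percentile, where Ccl9, Ccl8, Il15 and Il1r1 were too dim to be tested, and 0 and 0 without the trend. At that filter 0 higher and 1 lower gene were 1.5-fold apart in both numbers. Median centring turned Ccl2 to -0.058, Cxcl16 to -0.075 and Saa3 to -0.012, and a pseudocount of 64 turned Saa3 to -0.0033. With 1 array left out, differences ran from -1.67 to 1.78 for Ccl2, from -0.47 to 1.15 for Ccl5, from -0.87 to 1.61 for Ccl7, from -0.66 to 1.45 for Cxcl1 and from -1.40 to 0.19 for Cxcl12. They ran from -0.98 to 1.07 for Cxcl16, from -0.61 to 0.011 for Cx3cl1, from -0.39 to 1.15 for Il1rn, from -1.57 to 1.05 for Il6 and from -0.53 to 0.79 for Il11. They ran from -0.36 to 0.75 for Il18, from -0.46 to 0.50 for Saa3 and from -0.51 to 0.69 for Nfkbia. Leaving out 1 array unbalances the numbers, so these ranges mix the difference between the genotypes with that between the numbers. Beyond that and the tests lost to the filter, the cause of these changes was not tested. With no detection calls, levels near the array medians have no stated background.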
